A study of Saccharomyces cerevisiae x Saccharomyces paradoxus and Saccharomyces cerevisiae and Saccharomyces paradoxus with 40 samples.

Results

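The comparison described here is that of meiosis I entry with the start of starvation in the budding yeast Saccharomyces paradoxus, a wild relative of baker's yeast. It takes 6 of the 40 messenger RNA libraries of a study of meiotic gene expression in S. cerevisiae, S. paradoxus and their hybrid: 3 of S. paradoxus at T0, the control taken on entry into sporulation medium, and 3 at M1, the beginning of meiosis I. Every row of the deposited count table that names a gene belongs to it, which is 3217 of 3463 rows; the other 246 are replication origins, repeats, centromeres and telomeres. Cultures had grown for 15 h at 30 °C in YPD, a rich medium with 2% dextrose. They were then washed and moved to a medium of 1% potassium acetate with 0.1% yeast extract and 0.05% dextrose. For this medium 24 h, with shaking at 340 rpm, are listed alike for T0 and M1, so these hours do not date the stages. Neither group carried a mutation or drug that the labels name, and the strains are given by species alone. The labels speak of biological replicates but not of separate cultures for each stage, so the p-values measure the spread between libraries. That spread was estimated for each gene from all 40 libraries of the study, in 12 groups, and not from these 6 alone.

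In budding yeast, a diploid cell that lacks nitrogen and has only a non-fermentable carbon source such as acetate leaves the mitotic cycle, copies its DNA and enters meiosis. The kinase Ime2 and the regulators that act with it switch on early genes, whose products build the chromosome axis, cut and repair DNA between homologous chromosomes and join them in the synaptonemal complex. The transcription factor Ndt80 later switches on the middle genes, which drive the divisions and the building of spores. On acetate the cell makes sugars through the glyoxylate cycle and gluconeogenesis, and starvation for nitrogen frees the transporters and enzymes that are repressed in rich medium.

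The depth in genes was 6658306, 1375269 and 7732384 counts in T0 replicates 1 to 3 and 800891, 648551 and 4819615 in M1 replicates 1 to 3. Levels are CPM, counts relative to the library total after scaling with edgeR's TMM factors, and a change is the log2 ratio of M1 to T0 ± its standard error from edgeR's quasi-likelihood fit, with n = 3 libraries in each S. paradoxus group. "Rose" and "fell" are kept for genes past a Benjamini-Hochberg adjusted p of 0.05 over the 3094 genes tested. Of the 3062 names of open reading frames, 3058 end in W, the letter for the Watson strand, and most genes of the other strand, among them IME1, UME6, RIM15, SPO11, REC8, CDC5, ICL1 and FBP1, were not analysed here. Libraries of M1 were less alike than those of T0, with rank correlations across genes of 0.664 to 0.706 against 0.806 to 0.928. Since cultures were sampled whole, a change in the number of cells that hold a transcript cannot be told apart from a change in its amount per cell.

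The stage labels were compared with marker genes. The summed level of 8 markers of meiotic prophase (IME2, HOP1, RED1, ZIP1, DMC1, HOP2, REC114 and REC104) was 407 to 593 CPM at T0 and 3255 to 13886 CPM at M1, and 6 of the 8 rose. The 6 markers of middle sporulation summed to 156 to 169 CPM at T0 and 264 to 568 CPM at M1, and none passed in edgeR's test. NDT80 itself averaged 40.1 CPM at T0, 85.9 at M1, 2319 at the overlap of both divisions and 6173 at the end of meiosis II in the same species. Markers of haploid or mating cells summed to 332 to 424 CPM at T0 and 331 to 713 CPM at M1, with 1 of 7 past the threshold (FUS3). Markers of dividing cells (CLN1, CLB2 and EGT2) summed to 586 to 1008 CPM at T0 and 282 to 449 CPM at M1, with none past it. The part of other cell types in the results was not tested.

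Between T0 and M1, 104 of 3094 genes passed the threshold, 3.36% of those tested, of which 44 rose (1.42%) and 60 fell (1.94%). These shares are the baseline for the counts by list given below, many of which are only 1 or 2 genes. Genes of meiotic chromosomes and recombination, of nitrogen use and of the acetate pathways were among those that rose. Among those that fell were enzymes of glycogen, trehalose and glucose use, stress genes, and genes that make ribosomes and protein. The median change was 3.35 among genes that rose and -3.98 among those that fell, and no call had a log2 change smaller in size than 1.96. The threshold favours large changes, so these medians describe the genes called alone. In 804 genes, 26.0% of those tested, the 3 M1 libraries lay all above (10.3%) or all below (15.7%) the 3 T0 libraries, and 97 of the 104 genes called were among these. Leaving out M1 replicate 2, the shallowest library, lowered the count to 66, and 43 of the 104 were called whichever library was left out. With size factors in place of TMM the median change of all genes moved by 0.12, from -0.10 to 0.02, and 89 genes were called.

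**Figure D1:**
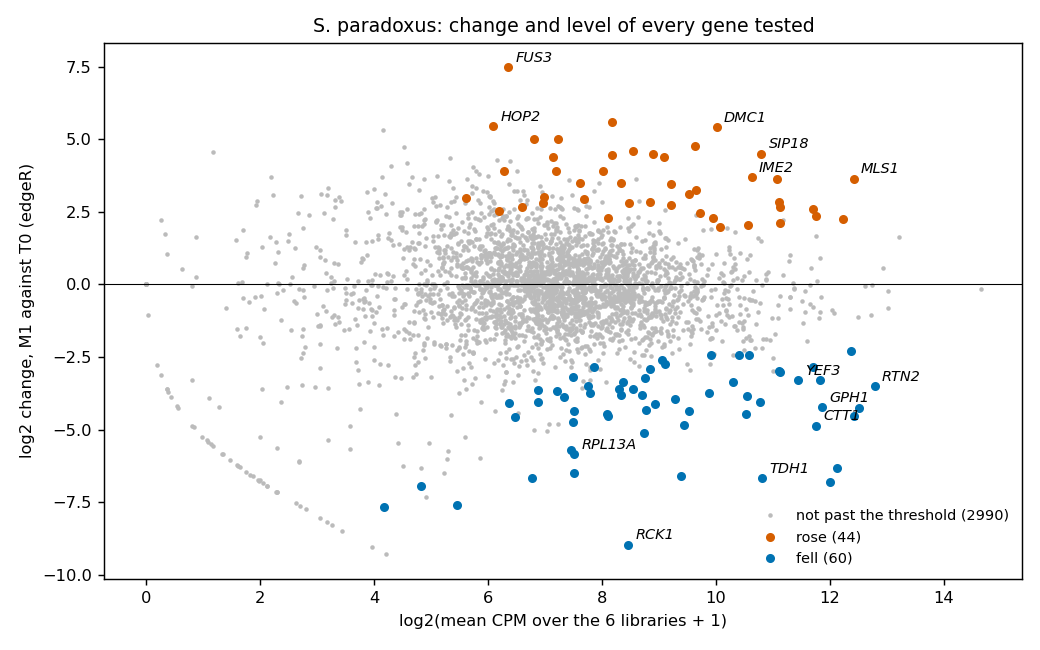
Each dot is 1 of the 3094 genes tested in S. paradoxus, with log2 of its mean CPM over the 6 libraries plus 1 on the horizontal axis and its log2 change from T0 to M1 on the vertical axis. The 44 genes that rose are orange and the 60 that fell blue. Calls lie at changes of at least 1.96 in size, from 7.48 for FUS3 to -8.96 for RCK1, and the dense cloud around 0 holds genes that did not pass.

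Among the regulators of meiotic entry, 1 of 12 tested passed the threshold. IME2, which encodes the kinase that promotes meiotic entry and progression, had 156, 371 and 159.6 CPM in T0 replicates 1 to 3 and 1048, 1542 and 6236 CPM in M1 replicates 1 to 3. All M1 libraries lay above all T0 libraries, and the gene rose by 3.69 ± 0.65 (adjusted p = 6.37e-04, edgeR). NDT80 did not pass, with 49.0, 38.6 and 32.7 CPM at T0, 50.8, 138 and 68.6 CPM at M1 and a change of 1.09 ± 0.65. RIM4, which encodes an RNA-binding protein that holds back translation of middle genes, changed by 1.00 ± 0.58 and did not pass either. The median change of the 12 was -0.14, beside -0.10 over all genes tested.

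The genes of the chromosome axis and the synaptonemal complex had a median change of 2.27, and all 9 tested had a positive change. Of these, HOP1, RED1 and CSM4 rose. HOP1, an axis protein that promotes exchange with the homologue, was at 45.8, 35.4 and 65.3 CPM at T0 and 389, 544 and 2171 CPM at M1, a rise of 4.40 ± 0.72 (adjusted p = 3.88e-04). Its M1 libraries all lay above T0, with replicate 3 the highest. RED1, the axis protein that recruits Hop1, had 61.9, 11.8 and 22.3 CPM at T0 and 45.5, 429 and 987 CPM at M1 and rose by 3.91 ± 0.71 (adjusted p = 8.44e-04), though M1 replicate 1 lay below T0 replicate 1. CSM4, needed for telomere-led chromosome movement in prophase, went from 14.6, 2.36 and 21.2 to 175, 223 and 407 CPM, a rise of 4.37 ± 1.11 (adjusted p = 0.0362). CSM4 was called in 2 of the 6 fits that left out a library, with the highest adjusted p, 0.187 without T0 replicate 2. ZIP1, the transverse filament of the complex, had 192, 82.6 and 84.2 CPM at T0 and 149, 49.4 and 823 CPM at M1 and did not pass (1.51 ± 0.76). Its level was high in M1 replicate 3 only, and without that library its change was -0.27. ECM11, of the central element, changed by 3.19 ± 0.91 (adjusted p = 0.0590).

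In meiotic recombination, 5 of 19 genes rose (4 with size factors, where HED1 did not pass) and none fell, with a median change of 1.77. DMC1, the strand exchange protein made only in meiosis, had 72.7, 18.9 and 50.1 CPM at T0 and 1282, 1776 and 3001 CPM at M1. Every M1 library lay above every T0 library, and the gene rose by 5.40 ± 0.72 (adjusted p = 3.81e-05). HOP2, which helps Dmc1 pair homologous strands, had 1.74, 0.787 and 5.82 CPM at T0 and 2.12, 40.9 and 352 CPM at M1, with M1 replicate 1 within the range of T0, and rose by 5.46 ± 1.14 (adjusted p = 0.00773). REC114, needed for the formation of double-strand breaks, had 16.5, 1.57 and 9.94 CPM at T0 and 184, 16.9 and 232 CPM at M1 and rose by 3.90 ± 0.91 (adjusted p = 0.0141). The crossover factor MSH5 rose by 3.03 ± 0.84 (adjusted p = 0.0439), from 37.0, 1.57 and 42.9 to 43.4, 192 and 439 CPM, with M1 replicate 1 just above T0 replicate 3. HED1 rose by 2.80 ± 0.79 (adjusted p = 0.0464), carried by M1 replicate 3 at 552 CPM, while the other M1 libraries were at 65.6 and 35.3 CPM. Of these calls that of DMC1 held in all 6 fits that left out a library. HOP2, REC114 and HED1 each held in 3 and MSH5 in 2, with the highest adjusted p at 0.230 without M1 replicate 3 for HOP2, 0.113 without T0 replicate 2 for REC114, 0.239 without T0 replicate 2 for MSH5 and 0.736 without M1 replicate 3 for HED1.

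Many early meiotic promoters of S. cerevisiae hold URS1, a site of the regulator Ume6 whose core is GGCGGC. The following windows show that core, on either strand, in the promoters of the 4 axis and recombination genes with the largest rises. They were read from the R64 reference of S. cerevisiae (RefSeq) and not from S. paradoxus, within 300 bases before the start codon, 5′ to 3′ on the strand of the gene, with the core in capitals (GCCGCC where it lies on the other strand).
HOP2: gattatgtcctcGGCGGCtaaattttccat
DMC1: gaccggaaaataGCCGCCcaaggataaact
HOP1: gtttttaacctgGGCGGCtaaattgtactt
CSM4: ggcccaccaataGCCGCCgacctccaaatt
The windows lie at chrVII:435484-435513, chrV:548271-548300, chrIX:226419-226448 and chrXVI:171276-171305, all on the plus strand of R64 and upstream of the coding sequence. Each promoter held 1 match, 123 to 190 bases before the start codon. The core was present in 312 of 6001 promoters of protein-coding genes (5.20%) and in 146 of 2748 of the genes tested (5.31%). Among genes that rose 13 of 42 promoters held it (31.0%), and among genes that fell 4 of 54 (7.41%). It was in 5 of 9 axis and 6 of 19 recombination genes tested. These are matches of letters in another species' sequence and were not tested.

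Of the genes of chromosome segregation and the divisions, 2 of 18 rose. SPO13, which sets the meiosis I pattern of segregation, had 8.68, 66.1 and 22.9 CPM at T0 and 107, 253 and 715 CPM at M1 and rose by 3.48 ± 0.91 (adjusted p = 0.0338). SLK19, a kinetochore and spindle protein, rose by 3.90 ± 0.85 (adjusted p = 0.00741) from 24.4, 11.0 and 18.6 to 66.7, 121 and 627 CPM. In both genes all M1 libraries lay above T0 and M1 replicate 3 was the highest. The B-type cyclin genes CLB1 (-1.34 ± 0.82) and CLB3 (1.2 ± 0.62) did not pass. SMC1, a subunit of the cohesin ring kept in the list of mitotic G1 and S phase genes, rose by 3.24 ± 0.66 (adjusted p = 0.00295) from 135, 235 and 93.7 to 1227, 1657 and 1490.5 CPM and was the only 1 of 22 in that list to pass. With a library left out in turn, SPO13 was called in 3 of 6 fits (up to 0.193 without T0 replicate 1), SLK19 in 4 (up to 0.173 without M1 replicate 3) and SMC1 in all.

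Middle sporulation genes had a median change of 0.98 with 2 of 18 past the threshold, and spore wall genes 1.12 with 2 of 10. SPS19, an enzyme of peroxisomal fatty acid breakdown that is induced in sporulation, had 40.3, 34.6 and 81.6 CPM at T0 and 720.5, 689 and 357 CPM at M1 and rose by 3.49 ± 0.69 (adjusted p = 0.00188). DON1, a coat protein at the leading edge of the prospore membrane, rose by 2.3 ± 0.61 (adjusted p = 0.0259), from 85.6, 132 and 60.2 to 474, 512 and 382 CPM. CDA1, a chitin deacetylase that makes the chitosan layer of the spore, rose by 2.65 ± 0.70 (adjusted p = 0.0267), and GSC2, a glucan synthase subunit used in the spore wall, by 1.96 ± 0.57 (adjusted p = 0.0477). The M1 libraries of all 4 genes lay above T0. Later levels were higher for a pair of them, with means of 456 CPM for DON1 at M1 and 6633 CPM at the end of meiosis II, and 165 and 3628 CPM for CDA1. DIT1, which starts the dityrosine layer of the spore wall, had 33.0, 1.57 and 26.0 CPM at T0 and 1.06, 7.06 and 2.42 CPM at M1, and its change of -2.66 ± 1.23 did not pass. SPS19 was called in all 6 fits that left out a library, DON1 in 4 (adjusted p up to 0.166 without T0 replicate 3), CDA1 in 3 (up to 0.187 without T0 replicate 2) and GSC2 in 1 (up to 0.295 without T0 replicate 2).

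**Figure D2:**
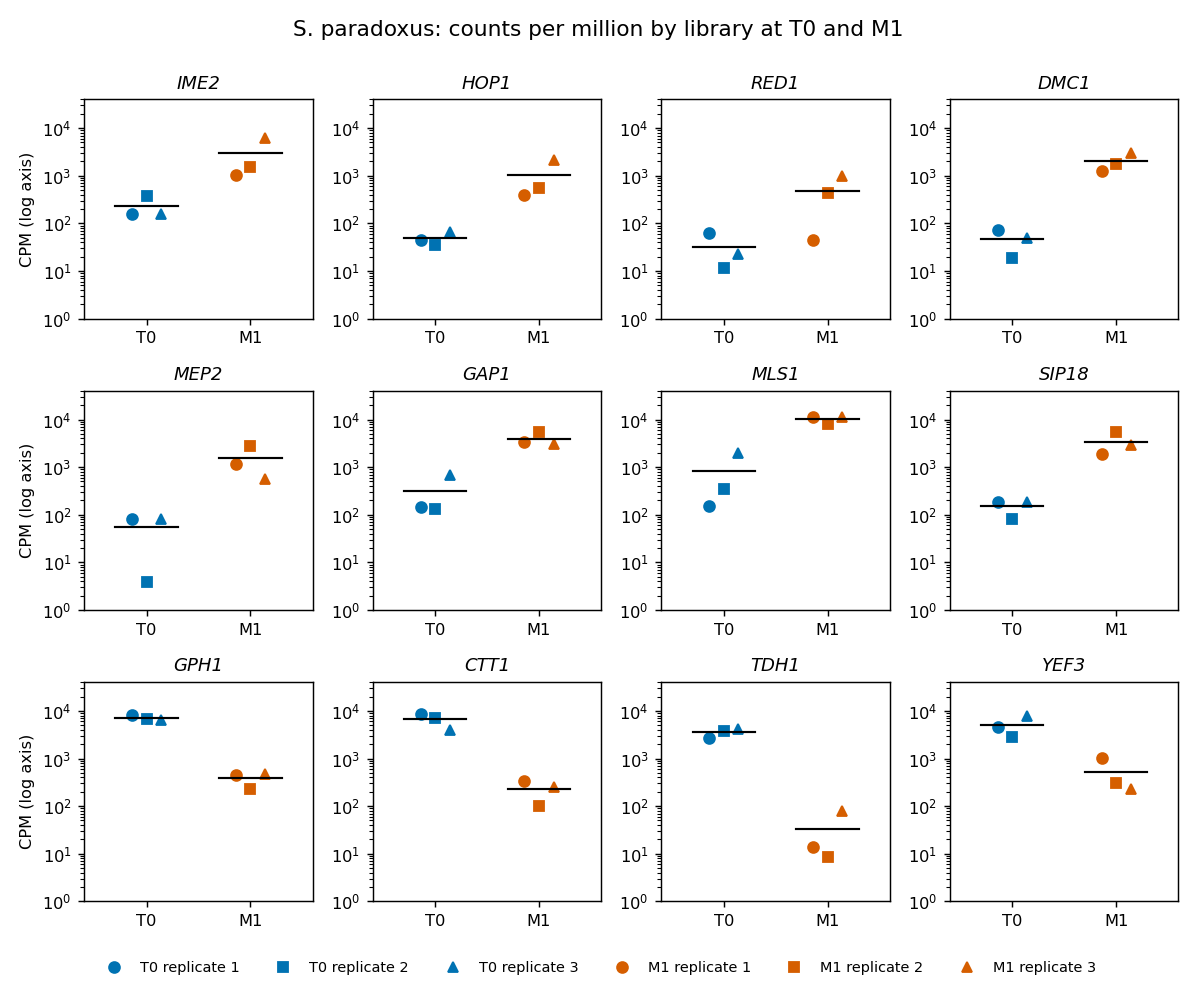
Levels of 12 genes in each of the 6 S. paradoxus libraries, in CPM on a log axis, with T0 in blue, M1 in orange, a symbol for each replicate number and a black bar at the group mean. The upper 8 genes rose and the lower 4 fell. RED1 is the gene shown in which the groups overlap, since M1 replicate 1 (45.5 CPM) lies below T0 replicate 1 (61.9 CPM).

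The acetate pathways rose in part. In the list of the glyoxylate cycle, gluconeogenesis and their supply, 5 of 14 rose (4 with size factors, where PDH1 did not pass), with a median of 1.21. MLS1, malate synthase of the glyoxylate cycle, had 154, 345 and 1945 CPM at T0 and 11138, 7989 and 11354 CPM at M1, a rise of 3.64 ± 0.57 (adjusted p = 8.09e-05) with no overlap. SIP4, an activator of gluconeogenic genes, rose by 3.13 ± 0.61 (adjusted p = 0.00158) from 193, 99.9 and 162 to 1148, 748 and 2084 CPM. The carnitine acetyltransferase genes YAT2 and CAT2, whose products carry acetyl groups between compartments, rose by 2.65 ± 0.53 and 2.59 ± 0.49 (adjusted p = 0.00158 and 7.97e-04). PDH1, an enzyme of propionate breakdown, rose by 2.04 ± 0.58 (adjusted p = 0.0437), a call that held in 3 of the 6 fits that left out a library (up to 0.274 without T0 replicate 2). PCK1, the gluconeogenic enzyme that makes phosphoenolpyruvate, had 568, 501 and 13046 CPM at T0 and 17174, 10605 and 15496 CPM at M1. T0 replicate 3 lay within the range of M1 and far above the other T0 libraries, and the gene did not pass (1.62 ± 0.63, adjusted p = 0.193), whereas without T0 replicate 3 its change was 4.75 with an adjusted p of 1.92e-06. The same T0 library was the highest of T0 for MLS1, YAT2, CAT2 and PDH1. Peroxisome and fatty acid genes had 1 of 19 past the threshold (SPS19) and a median of 0.67.

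Nitrogen use genes rose in 5 of 24 cases and none fell. MEP2, a high-affinity ammonium transporter, had 80.1, 3.93 and 82.8 CPM at T0 and 1167, 2845 and 563 CPM at M1, a rise of 4.76 ± 0.81 (adjusted p = 7.97e-04). GAP1, the general amino acid permease, rose by 3.63 ± 0.75 (adjusted p = 0.00375) from 144, 131 and 691 to 3427, 5503 and 3039 CPM. The GATA factor genes DAL80, a repressor of this pathway, and GAT1, an activator, rose by 5.01 ± 1.07 (adjusted p = 0.0100) and 2.85 ± 0.79 (adjusted p = 0.0439). GDH3, a glutamate dehydrogenase, rose by 2.36 ± 0.63 (adjusted p = 0.0261). For all 5 the M1 libraries lay above the T0 libraries, and for MEP2, DAL80 and GAT1 T0 replicate 2 was the lowest library, at 3.93, 0.787 and 3.15 CPM. DAL80 was called in 4 of the 6 fits that left out a library and GAT1 and GDH3 in 3 each, while MEP2 and GAP1 held in all. Without T0 replicate 2 the adjusted p was 0.0766 for DAL80, 0.227 for GAT1 and 0.173 for GDH3. The allantoin genes DAL2 (3.63 ± 1.03, adjusted p = 0.0619), DAL4 (3.81 ± 1.3) and DAL5 (2.29 ± 1.11) did not pass, nor did the arginine genes CAR1 (-1.06 ± 0.59) and CAR2 (-1.24 ± 0.71). The list's median was 0.54.

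GATA factors bind GATAAG, and the windows below show it in the promoters of the 3 nitrogen genes with the largest rises, read from R64 as above, with the match in capitals (CTTATC where it lies on the other strand).
DAL80: accgatcctgggCTTATCtcgctgcattgt
MEP2: aagaccctgtgcCTTATCaatgaagtattc
GAP1: taaattaaacatGATAAGcgcatagttggg
They lie at chrXI:506659-506688, chrXIV:357208-357237 and chrXI:514809-514838 on the plus strand, upstream of the coding sequence, and are the matches nearest to the start codon of 3, 1 and 2 in these promoters. GATAAG on either strand was in 17 of 24 promoters of the nitrogen genes tested (70.8%), the 5 that rose included, and in 880 of 6001 promoters of protein-coding genes (14.7%). Over all genes that rose the share was 28.6% and over those that fell 7.41%.

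Sulfate and amino acid genes moved in few cases. Over all genes tested 1.42% rose and 1.94% fell. MET3, ATP sulfurylase at the start of sulfate assimilation, rose by 4.47 ± 0.95 (adjusted p = 0.00782) from 19.4, 22.0 and 80.8 to 1333, 1261 and 139 CPM, with M1 replicate 3 closest to T0. MET17, which makes homocysteine from sulfide, rose by 2.85 ± 0.80 (adjusted p = 0.0456, and not past the threshold with size factors), but T0 replicate 3 (1332 CPM) lay above M1 replicate 3 (511 CPM). MET17 overlaps a gene of the other strand in R64, and the counting is not stated to use strand. These were 2 of 19 in the sulfate list, with a median of 0.90. In amino acid synthesis 2 of 33 rose, with a median of -0.27. These were ARO9, an aromatic aminotransferase (2.73 ± 0.59, adjusted p = 0.00375), and GCV2, of the glycine cleavage system (2.47 ± 0.68, adjusted p = 0.0362). With a library left out in turn, MET3 was called in 4 of 6 fits (up to 0.0690 without T0 replicate 1), ARO9 in 5 (up to 0.0602 without T0 replicate 3), and MET17 and GCV2 in 2 each (up to 0.260 without T0 replicate 2 and 0.247 without T0 replicate 2). Of amino acid and peptide transporters 1 of 16 fell, the short-peptide transporter gene PTR2 (-2.92 ± 0.82, adjusted p = 0.0486). Its call held in 1 of the 6 fits that left out a library and was lost with size factors.

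Genes of the reserve carbohydrates glycogen and trehalose fell in 6 of 12 cases (5 with size factors) and rose in none, with a median of -2.17. GPH1, glycogen phosphorylase, had 8148, 6891 and 6294 CPM at T0 and 445, 233 and 468 CPM at M1. All T0 libraries lay far above all M1 libraries, and the gene fell by 4.22 ± 0.61 (adjusted p = 4.35e-05). GLC3, the glycogen branching enzyme, fell by 3.30 ± 0.57 (adjusted p = 3.88e-04) from 6763, 7546 and 5613 to 438, 672 and 915 CPM. TPS2, trehalose-6-phosphate phosphatase, fell by 3.03 ± 0.73 (adjusted p = 0.0141), and TSL1, a regulatory subunit of the same complex, by 2.97 ± 0.72 (adjusted p = 0.0141). UGP1, which makes the UDP-glucose for both stores, fell by 2.85 ± 0.54 (adjusted p = 8.44e-04), and GDB1, the debranching enzyme, by 2.44 ± 0.63 (adjusted p = 0.0204). Both synthesis (GLC3, TPS2, UGP1) and breakdown (GPH1, GDB1) were among the genes that fell. GSY2, the main glycogen synthase, had T0 libraries all above M1 (2153 to 3942 against 329 to 1208 CPM) but did not pass (-1.90 ± 0.68, adjusted p = 0.150). GPH1, GLC3 and UGP1 were called in all 6 fits that left out a library. TPS2 and TSL1 were called in 3 each (up to 0.112 without M1 replicate 1 and 0.118 without M1 replicate 1) and GDB1 in 2 (up to 0.121 without T0 replicate 1).

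Few genes of sugar use fell. TDH1, an isozyme of glyceraldehyde-3-phosphate dehydrogenase, had 2759, 3789 and 4149 CPM at T0 and 13.8, 8.47 and 79.2 CPM at M1 and fell by 6.67 ± 0.88 (adjusted p = 4.35e-05). It has near-identical copies in the genome between which the authors' counting could have split reads, so its value is uncertain. ALD6, an acetaldehyde dehydrogenase that makes acetate, fell by 4.24 ± 0.76 (adjusted p = 9.60e-04) from 11733, 9516 and 12192 to 1172, 563 and 35.1 CPM, with M1 replicate 3 the lowest. These were 2 of 14 genes of glycolysis and fermentation, whose median was -1.59, while PGK1 (-0.45 ± 0.62), ENO1 (-0.94 ± 0.63) and CDC19 (-0.43 ± 0.67) did not pass. SUC2, invertase, had 9453, 8704 and 13427 CPM at T0 and 533, 466 and 383 CPM at M1 and fell by 4.51 ± 0.90 (adjusted p = 0.00413). HXT2, a high-affinity glucose transporter of a family of close copies, fell by 4.06 ± 0.64 (adjusted p = 1.41e-04) from 2540.2, 4611 and 2775 to 74.1, 230.1 and 291 CPM. They were 2 of 13 in their list (median -0.39), and in all 4 genes T0 and M1 did not overlap and the call held whichever library was left out.

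Among stress genes 4 of 27 fell and none rose, with a median of -0.83. CTT1, cytosolic catalase, had 8802, 7230.0 and 4056 CPM at T0 and 342, 103 and 248 CPM at M1 and fell by 4.86 ± 0.71 (adjusted p = 7.30e-05). RTN2, a reticulon protein of the endoplasmic reticulum, fell by 3.49 ± 0.73 (adjusted p = 0.00416) from 13900.1, 12053 and 13026 to 304, 919 and 2235 CPM. The heat shock genes SSA4, of the Hsp70 family, and HSP26, a small heat shock protein, fell by 4.11 ± 0.78 (adjusted p = 0.00169) and 3.80 ± 0.95 (adjusted p = 0.0267). HSP12, another general stress gene, had 9915, 11473 and 10494 CPM at T0 and 1661, 9054 and 7567 CPM at M1 and did not pass (-0.80 ± 0.69). Only its M1 replicate 1 stood far below T0. In 14 of the 27 genes the M1 libraries all lay below T0, and in 2 all above, beside 15.7% and 10.3% of all genes tested. CTT1 and SSA4 were called whichever library was left out, HSP26 in 3 of the 6 fits (up to 0.286 without T0 replicate 3) and RTN2 in 5 (up to 0.0501 without M1 replicate 1).

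The stress response element AGGGG, bound by Msn2 and Msn4 in S. cerevisiae, was looked for in the promoters of the 3 stress genes with the largest falls. It was found in R64 in CTT1 and SSA4, shown with the match in capitals (CCCCT on the other strand), and in the 300 bases before HSP26 these letters did not occur.
CTT1: catttatcgtatCCCCTactgctacacgta
SSA4: attcaataagcaAGGGGggaagctccttag
The windows lie at chrVII:654489-654518 and chrV:364398-364427 on the plus strand, upstream of the coding sequence. AGGGG was in 17 of 27 stress genes tested (63.0%), in 6 of 12 glycogen and trehalose genes and in 1331 of 6001 promoters of protein-coding genes (22.2%). Over all genes that fell its share was 24.1% and over those that rose 9.52%.

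Few genes for making ribosomes and protein passed singly, and most of the changes in these lists were negative, as were 1653 of the 3094 over all genes tested. The share that fell over all genes tested was 1.94%. In ribosome biogenesis 60 of 73 changes were negative, with a median of -1.3, and 8 fell. Among them were NOG1, a GTPase of the large subunit (-4.31 ± 0.79, adjusted p = 0.00117), and the ribosomal RNA processing factors PWP1 (-4.75 ± 0.99, adjusted p = 0.00572), BFR2 (-4.56 ± 1.08, adjusted p = 0.0174) and NAN1 (-3.74 ± 0.85, adjusted p = 0.0106). NOG1 had 569.9, 860.2 and 1063 CPM at T0 and 11.6, 52.2 and 61.0 CPM at M1. Of 24 translation factors 3 fell, with a median of -1.31. YEF3, elongation factor 3, had 4519, 2894 and 7718 CPM at T0 and 1006, 312 and 229 CPM at M1 and fell by 3.29 ± 0.58 (adjusted p = 5.01e-04). TEF4, a subunit of elongation factor 1B, fell by 3.93 ± 0.80 (adjusted p = 0.00354), and SSB1, an Hsp70 bound to ribosomes, by 4.83 ± 0.85 (adjusted p = 9.60e-04). The other 4 ribosome biogenesis genes that fell were DBP2, an RNA helicase, NOP1 and NOP56, of the box C/D small nucleolar particles, and SPB1, an RNA methyltransferase (-3.74 ± 0.76, -3.37 ± 0.84, -3.23 ± 0.84 and -3.19 ± 0.87). Of 72 ribosomal protein genes 62 had negative changes, with a median of -1.06, and 3 fell, namely RPL13A (-5.85 ± 0.98, adjusted p = 7.97e-04), RPS26B (-3.49 ± 0.96, adjusted p = 0.0464) and RPP0 (-2.43 ± 0.64, adjusted p = 0.0241). The mean log2(CPM + 1) of the 72 ribosomal protein genes was 8.45, 9.23 and 9.11 in T0 replicates 1 to 3 and 8.40, 7.70 and 6.74 in M1 replicates 1 to 3. M1 replicate 1 thus lay close to T0 replicate 1, and M1 replicate 3 was the lowest. SSB1, RPL13A and RPS26B have near-identical copies, so reads could have been split. NOG1, YEF3, TEF4, SSB1 and RPL13A were called in all 6 fits that left out a library. PWP1, BFR2 and NAN1 were called in 4 each (up to 0.0722 without M1 replicate 2, 0.112 without M1 replicate 1 and 0.107 without M1 replicate 2), RPP0 in 3 (up to 0.146 without M1 replicate 2) and RPS26B in 0 (up to 0.208 without T0 replicate 2). With size factors 5 ribosome biogenesis genes and 1 ribosomal protein gene passed.

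**Figure D3:**
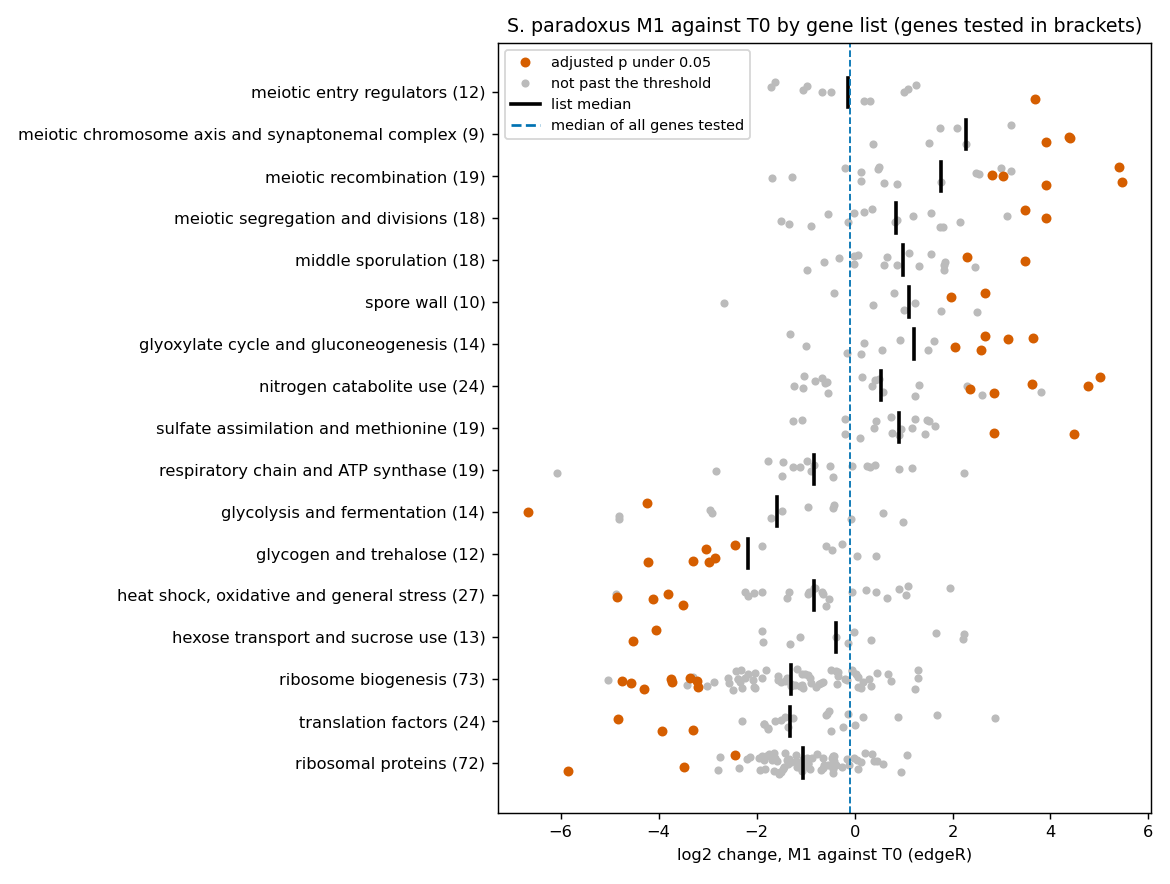
Log2 changes from T0 to M1 in S. paradoxus for the members of 17 gene lists, 1 dot per gene tested, orange where the adjusted p is under 0.05. Black bars are list medians, from 2.27 for the chromosome axis to -2.17 for glycogen and trehalose, and the dashed blue line is the median of all genes tested, -0.10.

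In 9 further lists, which held 175 genes tested, none passed edgeR's threshold, 18 had an unadjusted p under 0.05 and DESeq2 called 7. These were lists of 11 genes of the TCA cycle (median 0.20), 19 of the respiratory chain (-0.83), 34 mitochondrial ribosomal proteins (-0.87), 18 of autophagy (0.17) and 21 of the proteasome (0.59). The rest were 41 of DNA replication and nucleotide supply (0.79), 4 core histone genes (-0.48), 17 of iron and copper uptake (0.09) and 10 of phosphate use (-0.67). In DNA replication 31 of 41 changes were positive, beside 1426 of 3094 over all genes tested. In 10 of the 41 the M1 libraries all lay above T0 and in none all below, beside 10.3% and 15.7% of all genes tested. The mitotic G1 and S phase list had a median of -0.53. In ergosterol synthesis ERG25, a sterol methyl oxidase, rose by 2.27 ± 0.58 (adjusted p = 0.0191) and ERG4, of the last step, fell by 3.87 ± 0.89 (adjusted p = 0.0123), with a list median of 0.72 over 20 genes. ERG25 was called in 3 of the 6 fits that left out a library (up to 0.128 without T0 replicate 2) and ERG4 in 4 (up to 0.119 without M1 replicate 2). Over all lists 62 of the 104 genes called were members of at least 1, and 42 of none.

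In the haploid and mating list 1 of 23 rose, and the list's median was 0.50. It was FUS3, the mating pathway kinase, which had 1.16, 0.787 and 0.568 CPM at T0, from 13 counts in all, and 91.0, 326 and 66.4 CPM at M1, from 701 counts. This was the largest rise of all genes called (7.48 ± 1.44, adjusted p = 0.00607, and 0.0602 without T0 replicate 3). In S. cerevisiae FUS3 had 5 counts in all at T0 and 110 at M1, and the changes in the parents did not differ past the threshold (adjusted p = 0.880). The pheromone receptor gene STE2 (0.28 ± 1.56) and the G protein gene STE4 (2.91 ± 1.06, adjusted p = 0.170) did not pass.

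Outside the lists the largest rises belonged to YLL047W, YBR221W-A, YKL030W, SIP18, YHR140W, TLD1, SPO23 and YSP3, in that order, from 5.60 ± 0.98 to 2.96 ± 0.82. SIP18, whose product guards cells against drying, had 186, 81.1 and 184 CPM at T0 and 1861, 5498 and 2858 CPM at M1 (adjusted p = 3.81e-05). YSP3, which encodes a putative subtilisin-like protease, held its call in 1 of the 6 fits that left out a library (adjusted p up to 0.209 without T0 replicate 1), YBR221W-A in 4 (0.0820 without T0 replicate 2) and SPO23 in 3 (0.177 without T0 replicate 2). The other 5 genes held it in all 6. YLL047W and YKL030W name no gene in R64, so their overlap with genes of the other strand was not looked up.

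The largest falls outside the lists were of RCK1, YMR290W-A, YJL213W, YNL174W, YHR054W-A, FUR4, YGR160W and OYE2. RCK1, a protein kinase linked to the oxidative stress response, had 651, 815 and 634 CPM at T0 and 2.12, 2.82 and 0.346 CPM at M1, the latter from 6 counts in all, and fell by 8.96 ± 1.41 (adjusted p = 5.35e-04). YHR054W-A had 7021, 15051 and 2332 CPM at T0 and 54.0, 90.4 and 76.1 CPM at M1 and fell by 6.79 ± 0.72, with the smallest adjusted p of all (4.24e-06). RUF5-2, chosen after its values were seen, had a like course, from 7349.8, 16402 and 2641 to 113, 106 and 111 CPM (-6.32 ± 0.73, adjusted p = 9.43e-06), and both were at 0 in all 6 S. cerevisiae libraries of T0 and M1. FUR4, the uracil permease, fell by 6.67 ± 1.35 (adjusted p = 0.00605, and 0.0502 without M1 replicate 2), and OYE2, an NADPH oxidoreductase, by 6.49 ± 0.89 (adjusted p = 3.81e-05). YGR160W fell by 6.61 ± 0.86 (adjusted p = 3.81e-05). YMR290W-A, YJL213W and YNL174W had 1, 2 and 2 counts in all at M1 against 599, 1283 and 939 at T0, so no fold is given for them. They passed at adjusted p = 0.0452, 0.0437 and 0.0333 (YMR290W-A not with size factors), and their calls held in 0, 0 and 2 of the 6 fits that left out a library (up to 0.154 without M1 replicate 2, 0.166 without M1 replicate 1 and 0.149 without M1 replicate 1). Of these genes YHR054W-A, RUF5-2, YGR160W, YMR290W-A and YNL174W name no gene in R64. Their overlap with genes of the other strand was therefore not looked up, and the counting is not stated to use strand.

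How far the change is shared with the other parent was tested as a difference of changes, with 3 libraries of S. cerevisiae at T0 and 3 at M1 that had been grown and starved in the same way. Genes of reserve carbohydrates, glycolysis and stress were the lists with the most genes whose change was lower in S. paradoxus, and these genes were at higher levels in S. paradoxus at T0. In 61 of 3094 genes (1.97%) the changes differed, being higher in S. paradoxus in 13 (0.420%) and lower in 48 (1.55%), and 24 of the 61 had also changed within S. paradoxus. In all 48 lower genes the mean of S. paradoxus at T0 lay above that of S. cerevisiae at T0, in 44 without overlap of libraries. At M1 the S. paradoxus mean lay below that of S. cerevisiae in 44 of the 48, in 21 without overlap. In the 13 higher genes the T0 mean of S. paradoxus lay below that of S. cerevisiae in 12. Levels at T0 and M1 are part of the difference that picked these genes, so these counts only describe them and are no separate evidence. The same counts over all genes tested are not given here. S. cerevisiae M1 replicate 2 held only 159496 counts in genes. The count was 33 without S. cerevisiae T0 replicate 3, 34 without S. paradoxus T0 replicate 2 and 40 without S. paradoxus M1 replicate 2.

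By list, lower changes than in S. cerevisiae were called in 7 of 12 glycogen and trehalose genes, 6 of 14 glycolytic genes and 6 of 27 stress genes, beside 1.55% of all genes. GLC3 lay at 5613 to 7546 CPM at T0 and 438 to 915 at M1 in S. paradoxus, and at 304 to 811 and 715 to 1945 CPM in S. cerevisiae, a difference of changes of -4.45 ± 0.80 (adjusted p = 8.15e-04). TSL1 lay at 2794 to 5109 and 275 to 771 CPM in S. paradoxus and at 138 to 266 and 998 to 1782 CPM in S. cerevisiae (-5.61 ± 1.01, adjusted p = 8.43e-04). In both genes S. paradoxus lay above S. cerevisiae at T0 without overlap. At M1 its TSL1 libraries all lay below those of S. cerevisiae, and those of GLC3 overlapped with them. The glycolytic genes PGK1, ENO1 and CDC19, chosen after their values were seen, did not change past the threshold within S. paradoxus. For PGK1, phosphoglycerate kinase, S. paradoxus had 3311 to 5934 CPM at T0 and 1697 to 4074 at M1, and S. cerevisiae 217 to 431 and 5489.6 to 14901 (-5.46 ± 0.88, adjusted p = 3.97e-04). For CDC19, pyruvate kinase, the difference was -4.10 ± 0.95 (adjusted p = 0.0130), and for ENO1, enolase, -3.60 ± 0.90 (adjusted p = 0.0212).

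**Figure D4:**
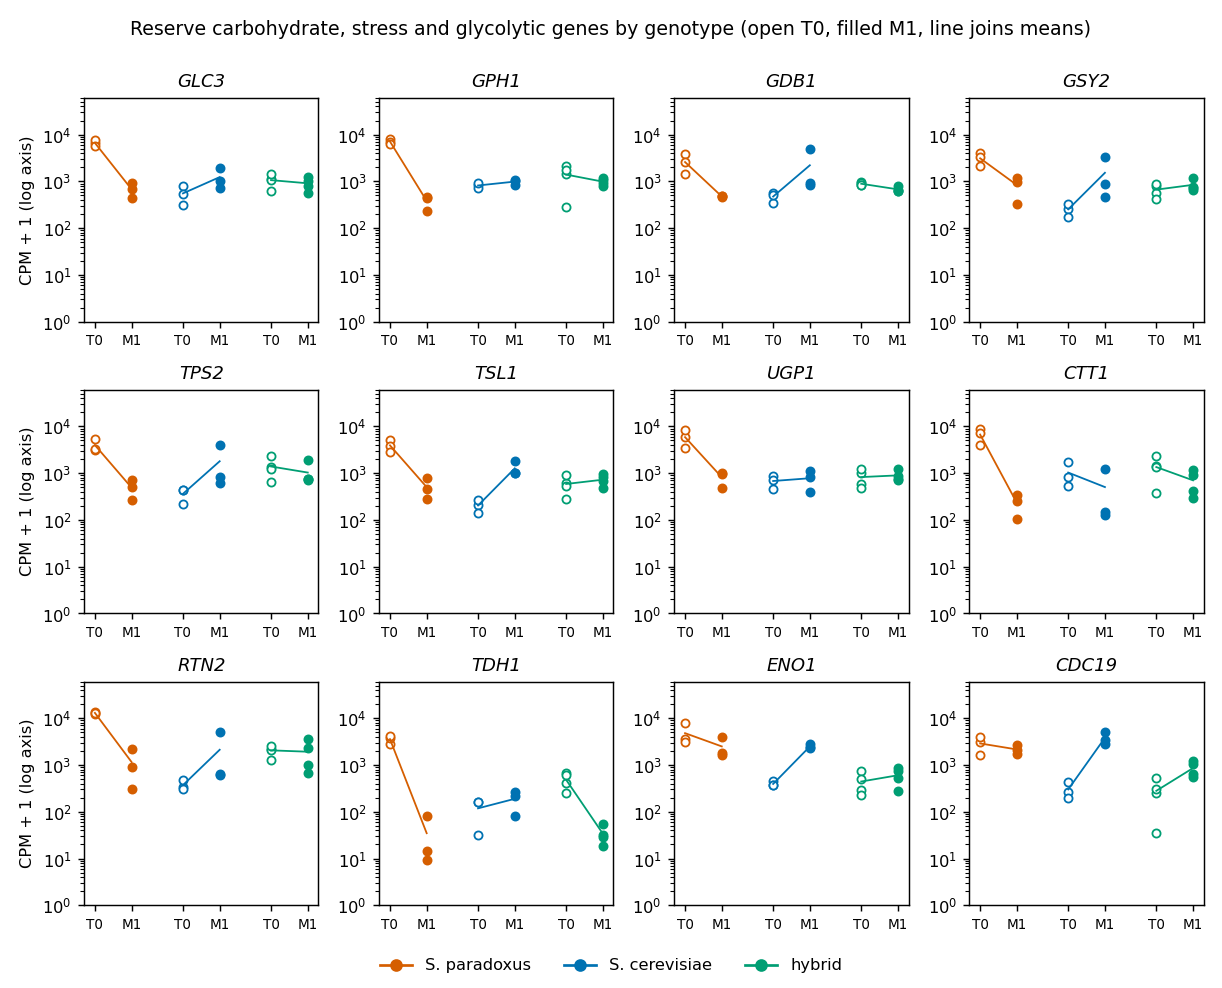
Levels of 12 reserve carbohydrate, stress and glycolytic genes, in CPM plus 1 on a log axis, in each library of S. paradoxus (orange), S. cerevisiae (blue) and the hybrid (green). Open circles are T0, filled circles M1, and lines join the means. At T0 the S. paradoxus libraries of GLC3 (5613 to 7546 CPM) lie above those of S. cerevisiae (304 to 811 CPM) and of the hybrid (609 to 1455 CPM).

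The named genes with a lower change than in S. cerevisiae were TDH1, RGI1, YJL213W, YLL037W, PHO12 and YMR084W. TDH1 differed by -7.39 ± 1.24 (adjusted p = 8.15e-04), with S. cerevisiae at 30.2 to 164 CPM at T0 and 81.5 to 262 CPM at M1. RGI1, a gene of respiratory growth, differed by -10.50 ± 1.71 (adjusted p = 8.15e-04). It went from 3526, 6905 and 506 to 591, 759.5 and 28.9 CPM in S. paradoxus, where it did not pass, and in S. cerevisiae from 12.1, 2.17 and 0.340 to 1536, 0 and 1320.0 CPM, at 0 in the shallow library. PHO12, an acid phosphatase with a near-identical copy, differed by -7.68 ± 2.09 (adjusted p = 0.0457) but had 7 counts in all in S. cerevisiae at T0. YLL037W, which names no gene in R64 and had 5 counts in all in S. paradoxus at M1, differed by -8.90 ± 2.26 (adjusted p = 0.0416). YJL213W, with 2 counts in S. paradoxus at M1, passed at an adjusted p of 0.0297 and is given no fold. With size factors the adjusted p was 0.0566 for YLL037W and 0.0629 for PHO12. With any of the 12 libraries left out in turn, PHO12, YLL037W and YJL213W each held the call in 4 of 12 fits (adjusted p up to 0.207, 0.271 and 0.104), while TDH1 and RGI1 held it in all. YMR084W was at 0 in all S. cerevisiae T0 libraries and at 6.84, 1477 and 0 CPM at M1, so its difference (adjusted p = 0.0103) rests on the shallow library and no fold is given. Without the 4 shallowest libraries of the study the adjusted p was 0.256 for YMR084W and 0.204 for YLL037W.

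Higher changes than in S. cerevisiae were named for MEP2, SIP18, YKL030W, YBR221W-A, PIR3 and RTS2. MEP2 rose in S. paradoxus while S. cerevisiae had 32.6 to 113 CPM at T0 and 5.02 to 30.6 CPM at M1, a difference of 6.73 ± 1.19 (adjusted p = 8.43e-04). For SIP18, S. cerevisiae was already at 3075 to 4954 CPM at T0 and had 1029 to 6325 CPM at M1 (5.11 ± 0.89, adjusted p = 8.15e-04). YKL030W and YBR221W-A differed by 6.09 ± 1.31 and 6.87 ± 1.54 (adjusted p = 0.00918 and 0.0138), also from a higher T0 level in S. cerevisiae. PIR3, a cell wall protein, had 492, 586 and 791 CPM at T0 and 258, 449 and 546 CPM at M1 in S. paradoxus, while S. cerevisiae had 230.2 to 460.4 CPM at T0 and 1.26 to 10.2 CPM at M1 (5.57 ± 1.31, adjusted p = 0.0178). RTS2 did not pass within S. paradoxus (4.34 ± 1.44, adjusted p = 0.151). In S. cerevisiae it was at 46.0, 1.09 and 77.9 CPM at T0 and had only 9 counts in all at M1. Its changes differed by 8.69 ± 2.15 (adjusted p = 0.0435). The call of RTS2 held in 3 of 12 fits that left out a library, up to an adjusted p of 0.129. For PIR3 this was 9 of 12, up to 0.0782, and for YBR221W-A 11 of 12, up to 0.0548. Of IME2 and the axis, recombination and segregation genes that rose in S. paradoxus, 1 of 11, RED1, had a change that differed from that in S. cerevisiae (4.36 ± 1.01, adjusted p = 0.0130). IME2 differed by 0.41 ± 0.92, HOP1 by 0.64 ± 1.05 and DMC1 by 2.32 ± 1.02, none past the threshold. CAT2 (2.82 ± 0.69, adjusted p = 0.0163), SPS19 and ARO9 were also among the 13 genes with a higher change.

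The change in S. paradoxus differed from that in the hybrid, which had 4 libraries at each stage, made up of reciprocal crosses, in 12 of 3094 genes (0.388%), 6 higher (0.194%) and 6 lower (0.194%). Lower changes were found for GPH1, GLC3, UGP1 and CTT1, for PDR15, a drug transporter, and for MPC3, a subunit of the mitochondrial pyruvate carrier. GPH1 differed by -3.71 ± 0.81 (adjusted p = 0.0421), with the hybrid at 278 to 2122 CPM at T0 and 806 to 1185 CPM at M1. PDR15 differed by -4.64 ± 1.04 (adjusted p = 0.0421), going from 3773, 1969 and 1156 to 234, 106 and 331 CPM in S. paradoxus. In all 6 of these genes the S. paradoxus T0 libraries lay above those of the hybrid without overlap. The same count over all genes tested is not given here. Levels at T0 are part of the difference that picked the genes, here and for the higher changes, so their order is no separate evidence. Higher changes were found for MLS1, SIP18 and SPS19, which were lower in S. paradoxus than in the hybrid at T0, for NOC2, which helps to export large ribosomal subunits, and for RPL2B and TEF2. NOC2 had 294, 226 and 464 CPM at T0 and 212, 161 and 105 CPM at M1 in S. paradoxus, where it did not pass, and 1181 to 2341 and 12.8 to 58.3 CPM in the hybrid (difference 4.59 ± 0.92, adjusted p = 0.0364). MLS1 differed by 3.32 ± 0.75 (adjusted p = 0.0421), with the hybrid at 6242 to 24479 CPM at T0 and 19390.4 to 24092 CPM at M1. RPL2B (a ribosomal protein) and TEF2 (elongation factor 1A) have identical or near-identical copies, so their values are uncertain. With size factors in place of TMM none of the 12 passed, at an adjusted p of 0.0630 each, while DESeq2 called 57 genes. Without S. paradoxus T0 replicate 1 or 2, or M1 replicate 1 or 2, 0 genes were called. Without hybrid M1 replicate 3 there was 1, without hybrid M1 replicate 4 there were 4 and without hybrid T0 replicate 4 there were 5. At an unadjusted p under 0.05 the fit held 329 genes.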

How the data were processed

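Messenger RNA was purified from total RNA by its poly-A tail, copied into cDNA and sequenced on an Illumina HiSeq, per the labels' protocols. The authors deposited whole-number counts per feature, and values that their file name calls variance-stabilised, which lie on a scale close to log2. Bowtie 0.12.7 and DESeq 1.8.3 are named in the submitters' processing notes; which program counted reads, on which annotation and build, and whether by strand, is not given in the sources used here.

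The deposited counts of genes in all 40 libraries (12 groups) were fitted with edgeR 4.0.16 in R 4.3.3 (TMM factors, 0.911 to 1.2 in these 6 libraries; default filter on low counts, which kept 3094 of 3217 genes; quasi-likelihood test; Benjamini-Hochberg adjustment over all genes tested). The common biological coefficient of variation was 0.871. Rows that name no gene were left out and held 0.443% to 3.41% of counts in the 6 libraries. Alternatives were size factors, no filter, DESeq2 1.42.0, a robust fit, other sets of libraries, a replicate block and limma 3.58.1 on the authors' log2-like values.

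The members and the 31 gene lists were chosen with earlier results of these data known. Named were up to 4 called genes per list with the largest changes and 50 or more counts on average, the 8 largest rises and falls outside the lists whose groups do not overlap, a set of well-known meiotic, carbon and stress genes, and up to 6 genes per direction of each difference between genotypes. All others named were chosen after their values were seen, among them UGP1, GDB1, HED1, PDH1, GDH3, DBP2, NOP1, NOP56, SPB1 and genes named as not passing. With 3 libraries against 3 no exact permutation test of a single gene can go below 0.10. Names were matched to the S. cerevisiae R64 annotation of RefSeq, which held 2772 of the gene rows. Overlap with a gene of the other strand was looked up for those rows alone. Promoter letters were read from the R64 genome.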

Additional observations from a re-analysis of the deposited data

Results flagged for a closer look

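In S. paradoxus the change from T0 to M1 differed from that in S. cerevisiae, by edgeR's test of the difference itself, in 12 named genes. The difference was 8.69 on the log2 scale for RTS2, 6.87 for YBR221W-A, 6.73 for MEP2, 6.09 for YKL030W, 5.57 for PIR3 and 5.11 for SIP18. It was -10.50 for RGI1, -8.90 for YLL037W, -7.68 for PHO12 and -7.39 for TDH1. YMR084W (adjusted p = 0.0103) and YJL213W (adjusted p = 0.0297) have a group with 0 or 2 counts and no fold. Counts were also few for RTS2 (9 in all in S. cerevisiae at M1), PHO12 (7 in S. cerevisiae at T0) and YLL037W (5 in S. paradoxus at M1).

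Against the hybrid the change differed by 5.06 for RPL2B, 4.59 for NOC2, 4.24 for TEF2, 3.97 for SPS19, 3.54 for SIP18 and 3.32 for MLS1. The differences of PDR15, CTT1, GPH1, MPC3, GLC3 and UGP1 were -4.64, -3.91, -3.71, -3.32, -3.07 and -2.97.

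Among the 4 hybrid libraries of M1, replicate 1 lay apart from the rest for TEF2, at 9.15 CPM, and replicate 4 for MLS1, at 24092 CPM. They came from 24 groups looked at, of which chance marks about 1 in 20.

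Counts on features that are not genes (replication origins, repeats and the like), which no comparison uses, made up 3.41%, 2.55% and 1.85% of all counts in M1 replicates 1 to 3 of S. paradoxus, against 0.443% to 1.68% at T0. The share was higher in all 3 M1 libraries.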

How the results depend on the processing

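The counts of genes called were 104 within S. paradoxus, 61 against S. cerevisiae and 12 against the hybrid. DESeq2 called 211, 192 and 57, and leaving out the 4 shallowest libraries of the study, none of them of S. paradoxus T0 or M1, gave 181, 107 and 57. A fit of the 6 libraries alone called 68. All 104 genes were called by DESeq2 and without the shallow libraries, 88 with size factors and 61 by the fit of 6 libraries. Size factors gave 89 and 44, and 0 against the hybrid. With a library left out in turn, the counts ran from 66 to 101, from 33 to 75 and from 0 to 16. ZIP1, which did not pass, ran from -0.27 without M1 replicate 3 to 2.15 without M1 replicate 2. Of the tested settings of named genes within S. paradoxus, 981 kept direction and call, 170 lost the call, 3 gained it (PCK1) and 1 turned in direction (ZIP1). Against S. cerevisiae 168 kept the call and 48 lost it, and against the hybrid 124 and 116. The causes were not tested.

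Same-numbered libraries deviated from their group means with correlations of -0.0475, 0.0571 and 0.129, so the numbers were not taken to pair them. With the number as a replicate block 110, 47 and 5 genes were called, and PCK1 passed. At 648551 to 7732384 counts per library, genes with few counts cannot show small changes.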
